A study of Mus musculus with 14 samples.

Results

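The CCAAT/enhancer binding proteins (C/EBPs) are transcription factors, and the genes described here are Cebpa, Cebpb, Cebpd, Cebpg and Cebpz. They were chosen by symbol, and all 5 were found among the 43472 genes of both tables. RNA was sequenced from primary fibroblasts, the connective tissue cells that rebuild a wound, isolated from the tail tips of C57BL/6 mice. All cultures were grown in medium with serum and wounded by scratching the cell layer. The treated cultures received autologous micrograft (AMG), a filtered extract of minced mouse skin from which cells had been removed by centrifugation, diluted 1:10 in growth medium. The control cultures are labelled only as untreated. Replicate 1 gave 1 untreated and 1 AMG-treated library at each of 1, 5, 12 and 24 h, and replicates 2, 3 and 4 gave 3 untreated and 3 AMG-treated libraries at 5 h. What libraries of 1 replicate number share is not given in the labels, so p-values measure the spread between these libraries, which may be technical. A primary culture can hold more than 1 cell type, and in such bulk RNA fewer cells of a type and less RNA per cell cannot be told apart.

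Cebpa, Cebpb, Cebpd and Cebpg encode proteins with a basic leucine zipper (bZIP), a region that pairs 2 proteins and grips DNA. C/EBP-alpha is known for driving fat cell and myeloid differentiation and for restraining cell division. C/EBP-beta and C/EBP-delta are the inducible members: cytokines such as IL-6 and IL-1 and bacterial products raise their transcripts within hours, and both act on genes of inflammation and the acute phase response. C/EBP-gamma is a short protein without an activation domain of its own, which pairs with the others or with ATF4 in the response to amino acid and oxidative stress. Cebpz carries the family's name but encodes no bZIP protein, and its product is related to factors that assemble ribosomes in the nucleolus. The sixth bZIP member, Cebpe, is mainly a gene of granulocytes and had between 0 and 4 reads in each of the 14 libraries.

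The 5 genes are on 4 chromosomes of mm10. Cebpa (ENSMUSG00000034957) lies on chromosome 7 from 35119293 to 35121928 and Cebpb (ENSMUSG00000056501) on chromosome 2 from 167688915 to 167690418. Cebpd (ENSMUSG00000071637) lies on chromosome 16 from 15887286 to 15891031. These 3 genes are on the plus strand and consist of 1 exon each, with lengths of 2626, 1504 and 3746 bases. Cebpg (ENSMUSG00000056216) lies on the minus strand of chromosome 7 from 35046422 to 35056573, 62719 bases from Cebpa, and has 2 exons. Cebpz (ENSMUSG00000024081) lies on the minus strand of chromosome 17 from 78919006 to 78937066 and has 16 exons. The transcripts of Cebpa and Cebpb were the richest in G and C (62.6% and 67.2%), against 51.6% in Cebpd, 43.3% in Cebpg and 43.4% in Cebpz. Tmem189 overlaps Cebpb, Spidr overlaps Cebpd and Cebpzos overlaps Cebpz by 1301 bases, each on the opposite strand. Whether the counting used strand is not given in the sources used here, so how reads in these overlaps were counted is not known.

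A promoter sequence was at hand for 3 of the 5 members (RefSeq, GRCm38.p6). For these 3, the 250 bases before the transcription start are shown 5′ to 3′ on the strand of the gene. Capitals mark matches to TGACG (the core of the cAMP response element, bound by CREB and ATF proteins), CCAAT (the box bound by NF-Y), TATAAA (the TATA box) and TTGCG (the core letters of a C/EBP site), on either strand. Cebpa is at chr7:35119043-35119292 (plus), Cebpb at chr2:167688665-167688914 (plus) and Cebpg at chr7:35056567-35056816 (minus).
Cebpa: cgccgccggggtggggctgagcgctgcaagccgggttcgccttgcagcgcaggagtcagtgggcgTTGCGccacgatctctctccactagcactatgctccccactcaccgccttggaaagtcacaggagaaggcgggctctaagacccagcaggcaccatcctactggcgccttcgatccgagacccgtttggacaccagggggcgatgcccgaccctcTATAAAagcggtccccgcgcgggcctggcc
Cebpb: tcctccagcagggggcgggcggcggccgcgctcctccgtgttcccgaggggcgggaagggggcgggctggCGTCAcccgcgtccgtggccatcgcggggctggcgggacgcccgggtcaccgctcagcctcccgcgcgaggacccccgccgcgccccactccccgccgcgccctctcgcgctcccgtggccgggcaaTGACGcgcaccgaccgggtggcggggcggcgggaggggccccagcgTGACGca
Cebpg: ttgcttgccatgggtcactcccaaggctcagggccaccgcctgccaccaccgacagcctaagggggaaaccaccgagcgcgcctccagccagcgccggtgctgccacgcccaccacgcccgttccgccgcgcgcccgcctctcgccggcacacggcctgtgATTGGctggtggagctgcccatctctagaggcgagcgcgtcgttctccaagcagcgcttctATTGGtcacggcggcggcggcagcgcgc

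TGACG was found 3 times before Cebpb, starting 180, 53 and 7 bases before the transcription start, and not before Cebpa or Cebpg. Among 32851 mouse promoter windows of the same length, 17.8% held TGACG on either strand. Cebpg had CCAAT in reverse at 89 and 28 bases before its start, a motif held by 33.8% of the windows. Cebpa had TATAAA 30 bases before its start (12.4% of the windows) and TTGCG 185 bases before it (14.5%). The full element TGACGTCA, the C/EBP palindrome TTGCGCAA, the AP-1 site TGANTCA and the STAT site TTCNNNGAA were not found in the 3 windows. TGACGTCA contains TGACG and TTGCGCAA contains TTGCG, so these counts overlap. They describe letters in a window and not bound sites.

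Sequencing depth was 12545537 to 34696529 reads in genes per library. Levels are given as normalised counts, which are reads divided by a size factor per library, and were never compared between the table of replicate 1 and the table of replicates 2 to 4. In replicate 1, transcripts of 89 ribosomal protein genes took 7.01% of the reads in Untreated 5h and 5.11% in AMG-treated 1h, against 2.28% to 3.48% in the other 12 libraries. These 2 libraries stood apart, and the ratio of treated to untreated varied with transcript length across all genes at 1 h (Spearman's rho = -0.49) and at 5 h (rho = 0.47) in replicate 1. Values with a length correction are therefore given beside the 1 and 5 h ratios of the members in replicate 1. In replicates 2, 3 and 4 the same rho was -0.35, -0.22 and -0.42. All 10 fibroblast markers were detected in every library, and of the 6 fat cell markers Cidec and Lep were at 0 in all 14 libraries, while Fabp4 was present in all, at 259 to 2067 in replicates 2 to 4 and at 372 to 1393 in replicate 1.

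The main question was how AMG moved the C/EBP transcripts 5 h after wounding. In replicates 2 to 4, Cebpb was higher with AMG by a log2 fold change of 2.27, Cebpd by 1.83, Cebpg by 0.66 and Cebpz by 0.30, whereas Cebpa had no common direction. In the limma fit without pairing, 0 of the 5 passed an adjusted p of 0.05, where 1.24% of all 13096 genes tested did, and the unadjusted p was under 0.05 for 3 (Cebpb, Cebpd and Cebpg). When the replicate number was a block, 4 of the 5 passed, all but Cebpa, and all 4 were higher, where 37.2% of all genes passed and 17.9% passed as higher. The block gave a count of 4 members also with the length correction (33.8% of all genes), with length and GC content (34%) and in edgeR (37%). EdgeR without the block called 0 members (3 at an unadjusted p under 0.05), where it called 1.03% of all genes, and DESeq2 called 3, Cebpb, Cebpd and Cebpg, where DESeq2 called 11% of all genes. Without both libraries of number 3, an alternative chosen after seeing the data, the same 3 members passed in limma, where 21.2% of all genes did.

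**Figure D1:**
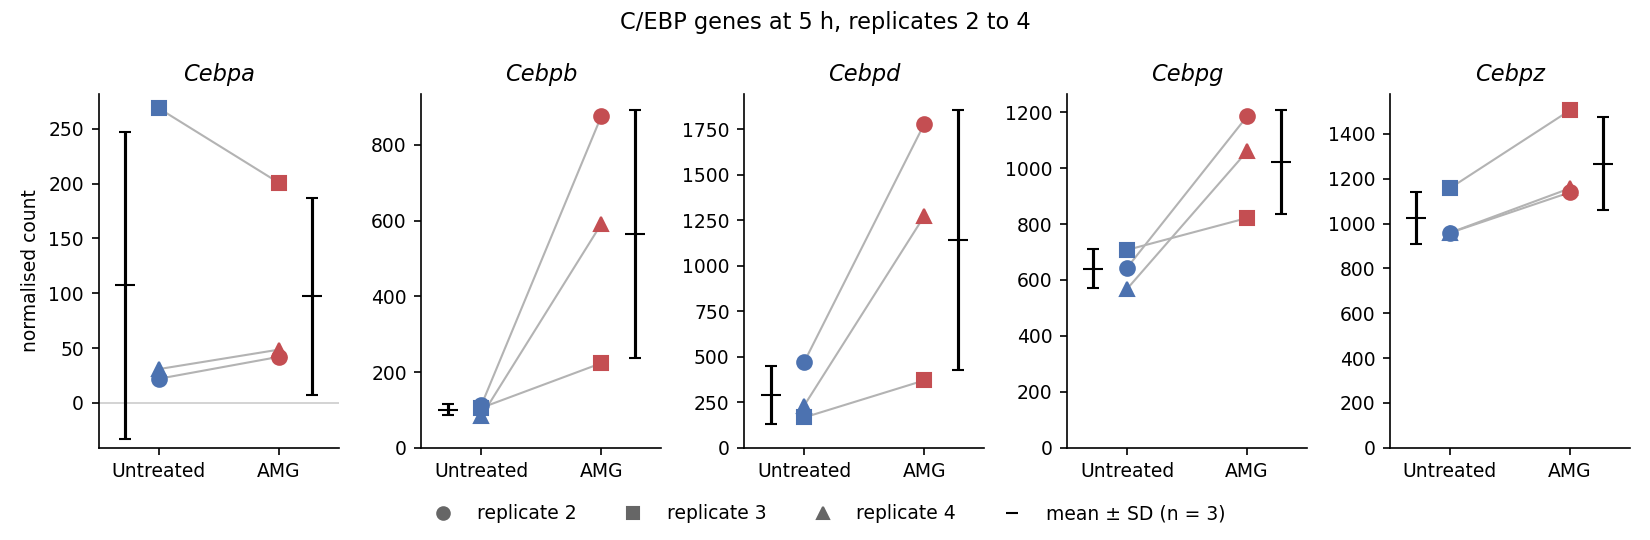
Normalised counts (vertical axes, a separate scale for each gene) of the 5 genes in the untreated (blue) and AMG-treated (red) libraries of replicates 2 to 4 at 5 h, with lines joining libraries of the same number and black bars for the mean ± SD (n = 3). Cebpb and Cebpg lie higher in all 3 treated libraries than in any untreated one, and replicate 3 (squares) shows the smallest difference in both and the highest Cebpa.

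Cebpb, the inducible activator also known as the nuclear factor for IL-6, was at 113, 106 and 83.8 normalised counts in untreated replicates 2, 3 and 4. With AMG it was at 877, 224 and 592. All 3 treated libraries were above all 3 untreated ones, and replicate 3 was the lowest of the treated libraries by a wide margin. The mean was 101 ± 15.3 without and 564 ± 327 with AMG (SD, n = 3), a difference of 2.27 on the log2 scale (SE 0.48, adjusted p = 0.0740 in limma). With the replicate block the adjusted p in limma was 0.000984. The level with AMG was 7.74-fold that of the untreated library in replicate 2, 2.11-fold in replicate 3 and 7.06-fold in replicate 4. Without AMG-treated 5h replicate 3 the log2 fold change was 2.83 (adjusted p = 0.00522 in limma). Of the 6 fits with 1 library left out, this was the 1 in which Cebpb passed. In the others the adjusted p in limma was 0.134 to 0.279. The share of all genes that passed without AMG-treated 5h replicate 3 was not computed. It was 21.2% without both libraries of number 3. Tmem189, which overlaps Cebpb on the other strand, differed by 0.55 on the log2 scale (SE 0.29, adjusted p = 0.293 in limma). With the replicate block Tmem189 passed too (adjusted p = 0.00246 in limma). A530013C23Rik, a noncoding RNA 759 bases downstream on the same strand, differed by 0.12 (adjusted p = 0.893 in limma, 0.834 with the block).

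Cebpd, the second inducible member and a known partner of C/EBP-beta early in fat cell differentiation, was more abundant and more variable. It was at 472, 167 and 233 in untreated replicates 2, 3 and 4 and at 1779, 371 and 1273 in the AMG-treated libraries of the same numbers. Every treated library was above the untreated library of its number, but treated replicate 3 was below untreated replicate 2, so the groups overlapped. The mean was 291 ± 160 without and 1141 ± 713 with AMG (SD, n = 3), a difference of 1.83 on the log2 scale (SE 0.63, adjusted p = 0.158 in limma). With the replicate block the adjusted p in limma was 0.000351. Without AMG-treated 5h replicate 3 and with no block it was 0.0194 in limma at a log2 fold change of 2.51, again with no share of all genes computed. Of the 6 fits with 1 library left out, this was the 1 in which Cebpd passed. In the others the adjusted p in limma was 0.291 to 0.397. Spidr, a DNA repair gene that overlaps Cebpd on the other strand, differed by 0.13 on the log2 scale (SE 0.16, adjusted p = 0.652 in limma).

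Leukocytes are a cell type rich in C/EBP-beta, so their markers are given beside both genes. The leukocyte list summed to 238 to 1539 normalised counts in the 3 untreated libraries and to 515 to 1860 in the 3 treated ones, over 9 of its 10 genes that were in the table. Of its 6 tested genes, 0 passed in limma and 1 with the replicate block. The 1 was Cd14, which encodes a receptor for bacterial lipopolysaccharide, at 152, 73.8 and 174 in untreated replicates 2, 3 and 4 and at 565, 307 and 640 with AMG (adjusted p = 0.0740 in limma, 3.17e-05 with the block). Lyz2, which encodes the lysozyme of myeloid cells, was at 158, 76.6 and 978 without and at 127, 95.9 and 916 with AMG, and so differed by replicate number. Ptprc, which encodes the pan-leukocyte antigen CD45, was between 0 and 11.9, with its 2 highest values in the libraries of replicate 4. The part of these markers in the levels of Cebpb and Cebpd was not tested.

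Cebpg, the short partner protein, was at 643, 707 and 568 in untreated replicates 2, 3 and 4. It was at 1185, 821 and 1059 with AMG. All 3 treated libraries were above all 3 untreated ones, with replicate 3 again the lowest of the treated. The mean was 640 ± 69.8 without and 1022 ± 184 with AMG (SD, n = 3), a difference of 0.66 on the log2 scale (SE 0.18, adjusted p = 0.108 in limma, 0.00722 with the replicate block). Pepd, the neighbouring prolidase gene 1714 bases away on the other strand, changed by -0.11 (adjusted p = 0.668 in limma). Cebpb and Cebpg were thus the 2 of 5 members whose groups did not overlap, where 28.7% of all genes had no overlap and 15.1% had none with the treated libraries above.

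Cebpz, the ribosome assembly factor, was at 958, 1157 and 958 in untreated replicates 2, 3 and 4 and at 1139, 1504 and 1157 with AMG. Each treated library was above the untreated library of its number, but the ranges overlapped, since untreated replicate 3 was level with treated replicate 4. The mean was 1025 ± 115 without and 1267 ± 206 with AMG (SD, n = 3), a difference of 0.30 on the log2 scale (SE 0.16, adjusted p = 0.299 in limma). With the replicate block the adjusted p in limma was 0.0340. Cebpzos, which shares 1301 bases with Cebpz on the other strand and encodes a small mitochondrial protein, differed by 0.12 on the log2 scale (SE 0.18, adjusted p = 0.727 in limma). Ndufaf7, which encodes a factor for complex I of the respiratory chain and starts 70 bases from Cebpz on the other strand, changed by -0.01 (adjusted p = 0.977 in limma).

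Cebpa, the differentiation factor, differed more between replicate numbers than between treated and untreated libraries. It was at 22.0, 269 and 30.8 in untreated replicates 2, 3 and 4 and at 42.0, 201 and 48.6 with AMG. It was highest in both libraries of replicate 3, higher with AMG in replicates 2 and 4 and lower with AMG in replicate 3. The log2 difference was 0.37 (SE 1.03, adjusted p = 0.855 in limma, 0.338 with the replicate block). EdgeR and DESeq2 put it at -0.10 and -0.13, so its direction changed with the tool. The range over the 3 untreated libraries was 3.55 on the log2(value + 1) scale, and only 1.60% of all tested genes had a wider one. The same range was 1.49 for Cebpd (10.7% of genes were wider), 0.43 for Cebpb (49.8%), 0.32 for Cebpg (64.1%) and 0.27 for Cebpz (70.4%). The endothelial marker Tek was also highest in replicate 3, at 226 in Untreated and 110 in AMG-treated 5h, against 0 to 17.6 in the other 4 libraries. Unlike Cebpa, it was lower with AMG in replicate 2 (17.6 to 3.82) and in replicate 4 (8.65 to 0). Of the same list, Vwf was highest in Untreated 5h replicate 3 (12.5), Cdh5 in AMG-treated 5h replicate 4 (14.7), and Emcn was at 0 in all 6. The fibroblast marker Thy1 was at 14712 and 14412 in replicate 3 and at 1068 to 1723 in the other 4 libraries. Other genes of the fibroblast list did not share this pattern. Lum was lowest in replicate 3, at 333 and 219, against 1423 to 6374 in the other 4 libraries. Dcn was also lowest there, at 1372 in both, against 3556 to 5151. The part of these markers in the Cebpa level was not tested.

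**Figure D2:**
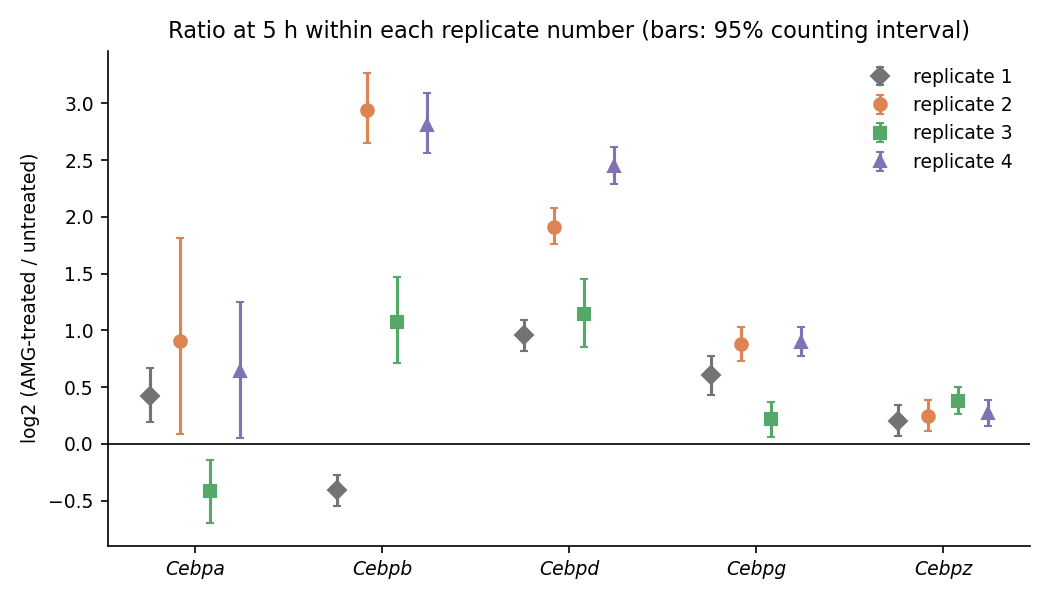
Log2 ratio of AMG-treated to untreated (vertical axis) at 5 h for each gene and replicate number, with bars for the 95% interval of counting error. Ratios are drawn without a length correction. Cebpd, Cebpg and Cebpz lie above 0 in all 4 replicates. Cebpb lies below 0 in replicate 1 and Cebpa below 0 in replicate 3.

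Replicate 1 gave a further 5 h comparison, from libraries scaled in the other table. Without a length correction, Cebpd, Cebpg and Cebpz were higher with AMG in all 4 replicates, as 15.8% of all genes were. With it, the log2 ratio in replicate 1 was 0.78 for Cebpd, 0.26 for Cebpg and -0.03 for Cebpz. Cebpd had ratios of 1.94, 3.77, 2.22 and 5.47 in replicates 1 to 4, and Cebpz had ratios of 1.15, 1.19, 1.30 and 1.21. Cebpb was the exception among the inducible members, at 1215 in the untreated and 914 in the treated library of replicate 1, a log2 ratio of -0.41 (95% binomial interval of counting error -0.54 to -0.28). With the length correction this ratio was 0.10, and with length and GC content 0.14. When all 4 replicates were fitted by edgeR with the replicate block, Cebpd was the 1 member that passed (log2 fold change 1.63, adjusted p = 0.0301), where 3.69% of all genes passed.

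Replicate 1 also followed the genes over time after wounding, with 1 library per point and therefore no test. At 1 h, 2 of the 5 members (Cebpb and Cebpd) were past a log2 ratio of 1, where 11.3% of all genes were above 1. At 5 h there were 0, where 13.3% of genes were, at 12 h there was 1 (Cebpd), where 5.93% were, and at 24 h there were 0, where 6.05% were. The intervals given with these ratios are exact binomial intervals of counting error only.

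Cebpb had its highest level in replicate 1 in the treated library at 1 h. It was at 776, 1215, 356 and 546 normalised counts in the untreated libraries at 1, 5, 12 and 24 h and at 4524, 914, 679 and 1088 in the treated ones. The treated library was therefore above the untreated one at 1, 12 and 24 h and below it at 5 h. The log2 ratio was 2.54 at 1 h (95% interval 2.43 to 2.66), and only 0.808% of genes had a larger one. With the length correction it was 2.00. At 12 h it was 0.93 (0.76 to 1.10) and at 24 h 0.99 (0.86 to 1.13). In the untreated libraries Cebpb was over 2-fold lower at 12 h than at 5 h, as were 14.5% of all genes. This comparison rests on Untreated 5h, the library with 7.01% ribosomal protein reads, and was not corrected for length.

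Cebpd was higher with AMG at every time. It was at 649, 911, 589 and 1215 in the untreated libraries at 1, 5, 12 and 24 h and at 1492, 1768, 1276 and 2278 with AMG. Its log2 ratio was 1.20 (1.06 to 1.35) early, at 1 h, and 0.96 (0.82 to 1.09) at 5 h. Later it was 1.11 (0.99 to 1.24) at 12 h and, at 24 h, 0.91 (0.82 to 1.00). The level was highest at 24 h in both arms. After length correction the ratio was 1.41 at 1 h and 0.78 at 5 h, and with GC content as well it was 1.57 and 0.62. Without a length correction, Cebpd and Cebpz were the 2 members above 1-fold at all 4 times, which 7.22% of all genes were.

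**Figure D3:**
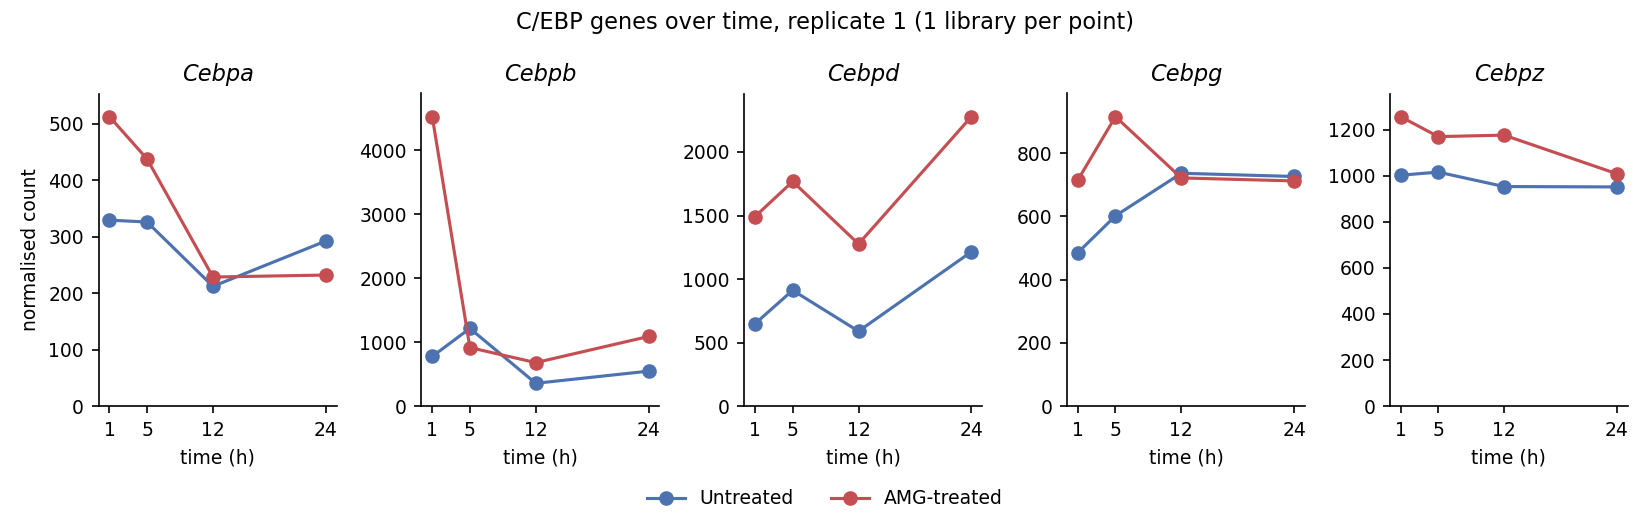
Normalised counts (vertical axes, a separate scale for each gene) in the untreated (blue) and AMG-treated (red) libraries of replicate 1 against time after wounding in hours, 1 library per point. Cebpb reaches 4524 with AMG at 1 h, Cebpd lies higher with AMG at all 4 times, and the 2 lines of Cebpg meet from 12 h on.

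Cebpg was higher with AMG at 1 and 5 h and level between the arms later. It was at 485, 602, 736 and 726 in the untreated libraries at 1, 5, 12 and 24 h and at 715, 915, 721 and 712 with AMG. The log2 ratio was 0.56 (0.37 to 0.75) at 1 h and 0.60 (0.44 to 0.78) at 5 h. It was -0.03 (-0.17 to 0.11) at 12 h and -0.03 (-0.17 to 0.11) at 24 h, so a difference was not detectable at this depth at the late times. Corrected for length, it was 0.91 at 1 h and 0.26 at 5 h.

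Cebpz was the steadiest member. It was at 1003, 1016, 954 and 952 in the untreated libraries and at 1257, 1170, 1177 and 1009 with AMG at 1, 5, 12 and 24 h. Its log2 ratio at 1, 5 and 12 h was 0.33, 0.20 and 0.30, and at 24 h it was 0.08 (-0.03 to 0.20), within counting error of no change. Corrected for length, the 1 h ratio was 0.59 and the 5 h ratio -0.03. Its antisense neighbour Cebpzos went the other way at 5 h, from 862 to 264 (log2 ratio -1.70, or -0.95 corrected for length), and up at 1 h, from 207 to 682 (1.72, or 0.75 corrected for length). The highest Cebpzos levels were in the 2 libraries with the high share of ribosomal protein transcripts, whose part in these ratios was not tested.

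Cebpa was at 330, 326, 212 and 293 in the untreated libraries at 1, 5, 12 and 24 h and at 513, 438, 229 and 232 with AMG. The treated library was higher at 1 and 5 h, level at 12 h and lower at 24 h. The log2 ratio was 0.64 (0.41 to 0.86) at 1 h and 0.42 (0.19 to 0.67) at 5 h. It was 0.11 (-0.14 to 0.36) at 12 h and -0.33 (-0.57 to -0.10) at 24 h. With the length correction it was 0.56 at 1 h and 0.54 at 5 h.

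Because the proteins pair with each other, the make-up of the family was also described, from levels divided by transcript length (normalised counts per kb). Without AMG at 5 h, Cebpz was the most abundant per kb of the 5, at 252 ± 28.2 (SD, n = 3), followed by Cebpg at 136 ± 14.8. Cebpd (77.6 ± 42.8), Cebpb (67.1 ± 10.2) and Cebpa (40.8 ± 53.3) came next and did not differ beyond their spread. With AMG, Cebpb was at 375 ± 218 per kb, Cebpz at 311 ± 50.6, Cebpd at 305 ± 190 and Cebpg at 217 ± 39.2. The spreads of Cebpb and Cebpd overlapped those of Cebpz and Cebpg, while Cebpz was above Cebpg in all 3 treated libraries. Cebpa was the lowest with AMG, at 37.0 ± 34.2. Cebpz was left out of the shares that follow, since its product does not pair with the bZIP members.

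Among the 4 bZIP members, Cebpg held 39.5%, 40.9% and 48.2% of the summed level per kb in untreated replicates 2, 3 and 4 and 19.0%, 35.0% and 23.0% with AMG. Cebpb held 21.8%, 19.1% and 22.3% without and 44.0%, 29.8% and 40.3% with AMG. Cebpg was the most abundant bZIP transcript in each untreated library, and Cebpb was above it in treated replicates 2 and 4 but not in treated replicate 3. The share of Cebpb was 17.0 percentage points higher with AMG and that of Cebpg was lower by 17.2 percentage points (from 42.8% to 25.7%). For both, the exact two-sided permutation test gave p = 0.1, the smallest p that 3 against 3 can give, and 0.2 after adjustment over the 4 members. Cebpd went from 24.4% to 30.2% (exact permutation p = 0.7) and Cebpa from 11.7% to 6.15% (exact permutation p = 0.5). Without Untreated 5h replicate 3, Cebpa was 2.59 points higher with AMG and Cebpd was lower by 0.44 points, so both directions rest on that library. In replicate 1, Cebpb was the most abundant bZIP transcript in all 8 libraries by this measure, from 37.5% in Untreated 12h to 80.1% in AMG-treated 1h. The order depended on the length used. With the coding length, Cebpg went from 71.5% to 54.2% and Cebpb from 5.69% to 13.5% at 5 h in replicates 2 to 4. By that length, Cebpb was the largest in replicate 1 only in Untreated 5h (33.0%) and AMG-treated 1h (56.5%). Cebpg was above Cebpb in all other libraries of replicate 1, from 27.0% against 20.9% in AMG-treated 24h to 55.1% against 13.5% in Untreated 12h. Cebpd was the largest in AMG-treated 5h (38.8%) and AMG-treated 24h (48.4%).

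**Figure D4:**
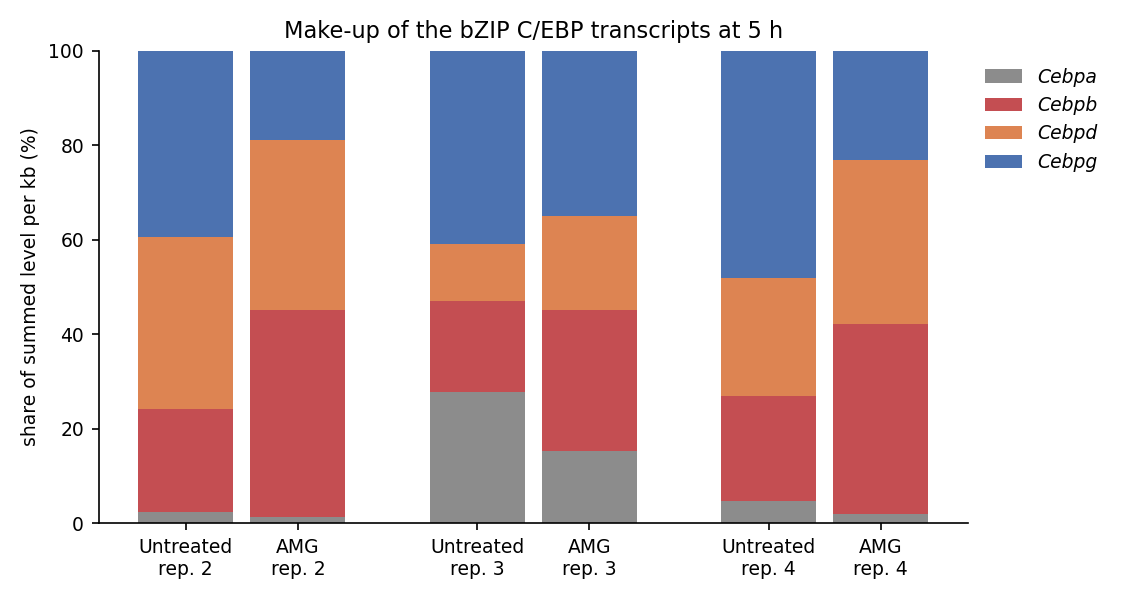
Share of each bZIP gene in the summed normalised count per kb of Cebpa, Cebpb, Cebpd and Cebpg (vertical axis, percent), in the 6 libraries of replicates 2 to 4 at 5 h. Cebpg (blue) is smaller and Cebpb (red) larger in the AMG-treated bar of each replicate, and Cebpa (grey) is large only in replicate 3.

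Genes that work with C/EBPs were taken from 6 lists, given as counts beside all genes, whose median log2 fold change at 5 h was -0.02. The lists held 112 genes, of which 92 were tested. In limma 15 of these passed, where 1.24% of all genes did, and with the replicate block 60 passed, where 37.2% did. The lists were chosen with earlier results of these data known, so these counts do not measure enrichment. Without AMG-treated 5h replicate 2 the count in limma was 1, and without AMG-treated 5h replicate 3 it was 35. Without both libraries of number 3 it was 41, where 21.2% of all genes passed. The share of all genes was not computed for the fits with 1 library left out.

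Known targets of C/EBP-beta and C/EBP-delta had the largest values of the 6 lists. Of 21 genes 16 were tested, all 16 were higher with AMG, 9 passed in limma and 15 with the replicate block, and the median log2 fold change was 3.40. Most of these genes are targets of NF-kB too. Il6, the cytokine that gave C/EBP-beta its older name, rose from a mean of 9.63 ± 13.4 to one of 671 ± 448 (SD, n = 3), by 6.72 on the log2 scale (adjusted p = 0.0402 in limma). Ptx3, which encodes the soluble pattern receptor pentraxin 3, rose by 3.15 (adjusted p = 0.0452 in limma). Lcn2, an iron-withholding acute phase protein, had 2.09 (adjusted p = 0.105 in limma) and Saa3, a serum amyloid gene, 1.93 (0.0710), and with the replicate block both passed (0.00208 and 4.09e-05). In replicate 1, the log2 ratio of Saa3 was 1.93, -1.50, 3.49 and 6.84 at 1, 5, 12 and 24 h and that of Lcn2 was 0.61, -0.42, 3.13 and 5.38, without a length correction.

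The partners and relatives of the family counted 15 genes, 10 of them tested, with 1 passing in limma and 6 with the replicate block (5 higher and 1 lower). Their median log2 fold change was 0.53, and 0.23 with the length correction. Trib1, a pseudokinase that sends C/EBP-alpha for degradation, rose from 286 ± 42.0 to 672 ± 91.0 (log2 fold change 1.23, adjusted p = 0.0335 in limma). Atf4, which encodes a partner of C/EBP-gamma, went from 4074 ± 397 to 7296 ± 1658 (0.82, adjusted p = 0.0874 in limma, 0.000887 with the block). Ddit3, which encodes CHOP, a C/EBP relative that blocks DNA binding by its partners, had a log2 fold change of 0.45 (adjusted p = 0.367 in limma, 0.0270 with the block). Atf3, a stress-inducible bZIP gene, had 0.91 (adjusted p = 0.442 in limma, 0.0585 with the block).

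Signals known to act upstream of Cebpb and Cebpd had no common direction. Of 20 genes, all tested, 1 passed in limma (Nfkb1, a subunit of NF-kB, log2 fold change 1.82, adjusted p = 0.0211) and 11 with the replicate block, 6 higher and 5 lower. The median was -0.11, and 0.02 with the length correction. Socs3, a feedback inhibitor of cytokine signalling, went from 408 ± 124 to 1705 ± 995 (1.87, adjusted p = 0.118 in limma, 0.000481 with the block). Il6st, the signalling receptor of the IL-6 family, had -0.74 (adjusted p = 0.177 in limma, 0.000525 with the block), and Stat3, the factor it activates, had -0.40 (0.154, and 0.00898 with the block). Il1r1, the IL-1 receptor, had 0.57 (0.305, and 0.00409 with the block).

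The fat cell programme that C/EBP-alpha shares with PPARG was mostly at low levels. Of 20 genes 10 were tested, 0 passed in limma, and with the replicate block 1 was higher and 5 were lower, with a median of -0.53. With the length correction the median was -0.26, and with the block as well 1 passed as higher and 3 as lower. In edgeR on 4 replicates with the block, the median over 9 tested genes was -0.08. Pparg, the master regulator of fat cells, went from 73.9 ± 20.5 to 36.2 ± 2.02 (log2 fold change -0.97, adjusted p = 0.144 in limma, 0.0185 with the block). Fabp4, a fatty acid carrier, was the 1 gene higher with the block (0.57, adjusted p = 0.711 in limma, 0.0120 with the block). Lpl, which encodes lipoprotein lipase, had -0.89 (0.801, and 0.0456 with the block) and Klf5, an early fat cell factor, 0.11 (0.928, and 0.742 with the block). The fat cell genes Adipoq, Plin1, Lep and Cidec were at 0 in all 6 libraries.

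Among 16 stress targets of ATF4 and C/EBP-gamma, all tested, 3 passed in limma and 8 with the replicate block, all of them higher. The median was 0.25, and 0.15 with the length correction. The 3 were Slc7a11 (log2 fold change 5.43, adjusted p = 0.00210), Gclm (1.92, 0.0375) and Txnrd1 (2.29, 0.0266), all in limma, which serve cystine uptake, glutathione synthesis and thioredoxin reduction and are targets of NRF2 too. Asns, the asparagine synthetase that is the classical amino acid response gene, had 0.09 (adjusted p = 0.783 in limma, 0.431 with the block). Chac1, which encodes a glutathione-degrading enzyme, had 0.88 (0.253, and 0.00241 with the block).

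Of 20 ribosome assembly factors given beside Cebpz, all tested, 19 had a log2 fold change above 0, 1 passed in limma (Nop56, 0.61, adjusted p = 0.0497) and 14 passed with the replicate block, all higher. Their median was 0.38, close to the 0.30 of Cebpz. Noc2l, a relative of Cebpz in the same nucleolar complexes, had 0.53 (adjusted p = 0.115 in limma, 0.00221 with the block), and Noc3l had 0.27 (0.312, and 0.0888 with the block). Npm1, which encodes the nucleolar protein nucleophosmin, had 0.50 (0.125, and 0.00615 with the block).

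**Figure D5:**
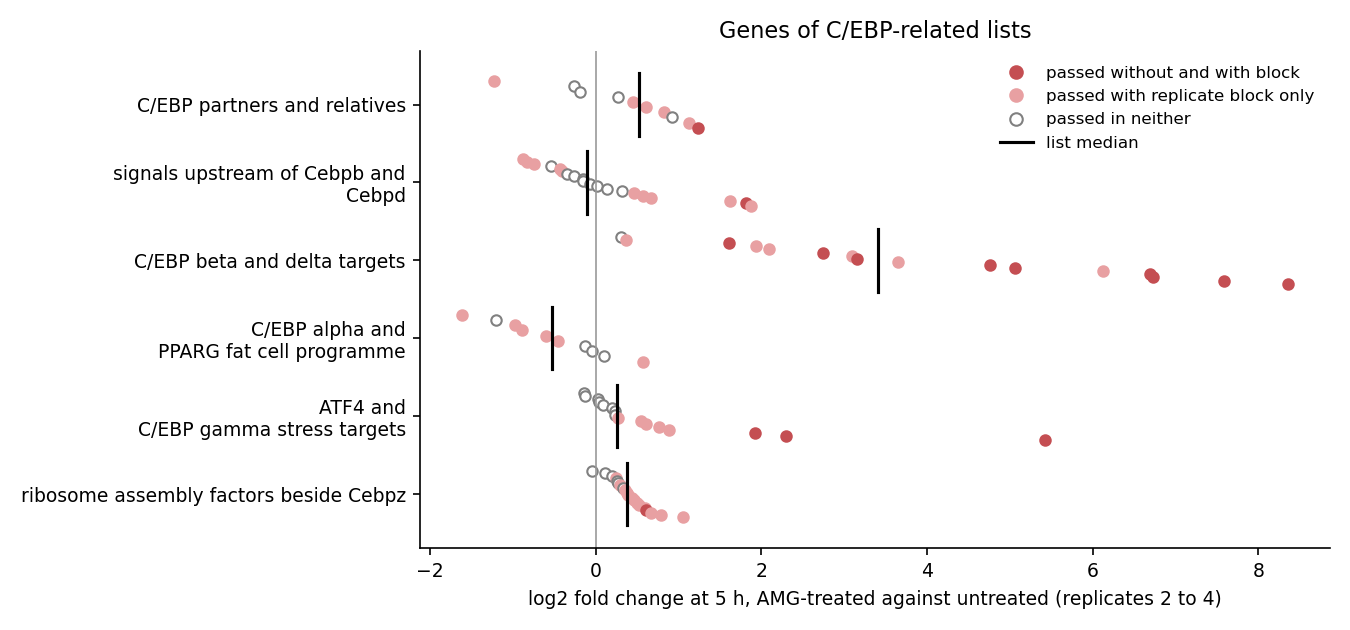
Log2 fold change at 5 h in replicates 2 to 4 (horizontal axis) of each tested gene of the 6 lists (rows), with black lines at the list medians, dark points for genes that passed an adjusted p of 0.05 in limma, light points for genes that passed only with the replicate block and open points for genes that passed in neither. The C/EBP-beta and C/EBP-delta targets lie to the right with a median of 3.40. The fat cell programme lies mostly to the left with a median of -0.53, which was -0.26 with the length correction (not drawn).

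The genes whose pattern was most like that of each member were found by Pearson's r over the 14 libraries, after centring log2 levels within each table, among 12844 genes. The points share libraries and depth, so these are descriptions. Cebpb was most like Ier5 (r = 0.96), Btg1 (0.95) and Ifnar2 (0.94), of which Ier5 is an immediate early response gene. Cebpd was most like E030030I06Rik (0.94), Rab32 (0.92) and RP24-317P24.1 (0.90). Cebpg was most like Mettl17 (0.88), Ctnnd1 (0.85) and Jun (0.84), the last being an AP-1 subunit. Cebpz was most like Ppp4r2 (0.94), G3bp1 (0.90) and Fgf7 (0.89). Cebpa was most like Thy1 (0.95), a fibroblast surface marker, Lrrc15 (0.94) and Aldh1a2 (0.93). In replicates 2 to 4, r was 0.97 for Thy1, 0.99 for Lrrc15 and 0.97 for Aldh1a2. In replicate 1 it was lower, at 0.79, 0.68 and 0.57 in the same order. Between members, Cebpb and Cebpg had r = 0.98 over the 6 libraries of replicates 2 to 4 and -0.02 over the 8 of replicate 1.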

How the data were processed

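The authors prepared stranded poly(A) libraries for 14 samples and sequenced single-end reads on a HiSeq4000. The reads were checked with FastQC 0.11.5 and aligned to mm10 with TopHat2 2.0.13. Unique alignments were kept with SAMtools 0.1.19.24, and reads per gene were counted with HTSeq 0.5.3p3. The annotation release is not given in the sources used here. The values the authors deposited are a normalised signal per gene, namely read counts divided by a DESeq size factor, in 2 tables scaled separately (8 libraries of replicate 1, 6 libraries of replicates 2 to 4). Divided by the value of 1 read, 100% of values came out whole within a tolerance of 0.1, and these reads were used in the count tests.

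The members and gene lists were chosen with earlier results of these data known. Groups came from the sample titles. The main test compared 3 AMG-treated with 3 untreated libraries at 5 h on log2(value + 1) with limma 3.58.1 (eBayes with trend) in R 4.3.3, two-sided, over 13096 genes with a mean of at least 10, so fold changes of low genes are understated. P-values were adjusted by Benjamini-Hochberg over all genes and called under 0.05. The replicate numbers were checked as pairs: deviations from group means correlated at r = 0.65, 0.76 and 0.70 for libraries of the same number and at -0.59 to 0.12 for others, so a fit with the number as a block is given beside the main one. On the recovered reads, edgeR 4.0.16 (quasi-likelihood, TMM) called 135 genes, DESeq2 1.42.0 called 1440 and edgeR with the block 4852. The scripts were tested on simulated data.

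Replicate 1 has 1 library per group and time and was given as log2 ratios of value + 1 with 95% exact (Clopper-Pearson) binomial intervals. Reads carry no molecular identifiers, so intervals cover counting error only. Lengths and positions are from GENCODE M21 (mm10), using the longest transcript. The length correction subtracts from each library its smooth trend over log transcript length (spline, 4 degrees of freedom). Genes named are the members, list genes fixed by hand, neighbours that overlap a member or lie within 10000 bases and are in the tables, the 3 genes most like each member, and, chosen after their values were seen, the few other list genes that passed and the marker genes named. Alternatives were pseudocounts of 0.1 and 10, no filter or a mean of at least 50, no trend, upper quartile scaling, the length and GC corrections, the count tests, all 4 replicates at 5 h, and each library left out.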

Additional observations from a re-analysis of the deposited data

Results flagged for a closer look

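In replicate 1 the direction of 2 members changed with time, and these differences between times were not tested, since each point is 1 library. The log2 ratio of Cebpa at 24 h minus that at 1 h was -0.968 (-0.33 against 0.64), and minus that at 5 h it was -0.756. The log2 ratio of Cebpb dropped by 2.95 from 1 h (2.54) to 5 h (-0.41), and was 1.34 higher at 12 h and 1.40 higher at 24 h than at 5 h. Corrected for length, the 1 h value of Cebpb was 2.00 and the 5 h value 0.10, so its change of direction was not seen with this correction. Untreated 5h of replicate 1, which the 5 h values rest on, had the largest share of ribosomal protein reads of the 14 libraries (7.01%). AMG-treated 1h, which the 1 h values rest on, had the next largest (5.11%).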

How the results depend on the processing

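The replicate block, or pairing, changed the most calls. It gave 4 members called, as did the block with the length correction, the block with length and GC correction and edgeR with the block, against 0 in the main test; DESeq2 gave 3, edgeR on 4 replicates with the block 1, and leaving out both libraries of number 3 gave 3. In the order block, block with length, block with length and GC, edgeR with the block, the log2 fold change was 2.27, 2.00, 2.13 and 2.37 for Cebpb, 1.83, 1.90, 1.85 and 1.90 for Cebpd, 0.66, 0.84, 0.87 and 0.68 for Cebpg and 0.30, 0.40, 0.44 and 0.31 for Cebpz, and all of these passed. DESeq2 gave 2.49, 1.98 and 0.68 for Cebpb, Cebpd and Cebpg, leaving out number 3 gave 2.87, 2.18 and 0.89, and edgeR on 4 replicates with the block gave 1.63 for Cebpd, all past the threshold. Cebpa reversed to -0.10 in edgeR and -0.13 in DESeq2. Leaving out each library in turn gave 0 to 3 members called and log2 fold changes of -0.34 to 1.48 for Cebpa, 1.85 to 2.83 for Cebpb, 1.38 to 2.51 for Cebpd, 0.55 to 0.81 for Cebpg and 0.17 to 0.39 for Cebpz. Leaving out AMG-treated 5h replicate 3 gave the 3 calls, and it put Cebpa below 0, as did leaving out untreated replicate 2 or 4. The share of all genes called was not computed for the fits with 1 library left out, so these counts have no background beside them. Cebpb, Cebpd, Cebpg and Cebpz stayed above 0 in all 21 alternatives listed in the methods. List genes called numbered 60 with the block, 57 with length and 57 with length and GC as well, 61 in edgeR with the block, 36 in DESeq2, 41 without number 3, 8 without the trend and 1 to 35 with each library left out, against 15. In replicate 1, members past 2-fold at 12 h were 2 with the length correction and 2 with length and GC (1 before), and 1 at 24 h with length and GC (0 before). The share of all genes past 2-fold was not computed with these corrections. The 5 h ratio of Cebpb turned to 0.10 with length and 0.14 with length and GC, and that of Cebpz to -0.034 with length. The share difference of Cebpa ranged from -10.1 to 2.59 points and that of Cebpd from -0.44 to 11.7 when each library was left out, reversing without Untreated 5h replicate 3. With a sign-flip over pairs no share could go below an exact p of 0.25. With the length correction, list medians were 0.23 for partners, 0.02 for upstream signals, -0.26 for the fat cell programme and 0.15 for stress targets. For targets of C/EBP-beta and C/EBP-delta the corrected median was 3.18, and for ribosome assembly factors 0.39. The cause of these changes was not tested.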
